A study of Mus musculus with 2 samples.

Results

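The genes described here are 55 genes of DNA replication and nucleotide supply, taken by symbol from the 22322 genes measured in liver macrophages of FABP7 KO and WT mice. The symbols were matched to the Ensembl gene IDs of the deposited table, and all 55 were found. By role they comprise 6 genes of origin licensing, 6 of the MCM helicase, 7 of helicase activation, 6 of the sliding clamp and its loader, 9 of the polymerases and primase, 3 of single-strand binding, 3 of lagging strand processing, 6 of nucleotide supply, 6 of replication-coupled chromatin and 3 of fork protection.

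Liver macrophages were profiled by mRNA sequencing in 1 library from FABP7 KO mice, which lack FABP7 systemically, and 1 library from WT mice, all on a C57BL/6 background (C57BL/6 J for the knockout line) and, per the methods of the study, young adult males. Mice of both genotypes carried liver metastases of MC38, a mouse colon carcinoma line, 10 days after 500000 cells in 100 µl had been injected into the spleen, and macrophages were taken by F4/80 positive selection. The labels give the knockout genotype as a knockdown in 1 field. How many mice contributed to a library is not stated in the sources at hand. With 1 library per genotype there is no replicate check, no test and no p-value, and every difference below is one between these 2 libraries.

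Before a cell can copy its DNA, the origin recognition complex, CDC6 and CDT1 load the MCM2 to MCM7 ring onto origins in G1 phase. In S phase, CDC45 and the GINS complex turn that ring into the active helicase, and polymerases, the PCNA clamp and the nucleotide-making enzymes then work together at the fork. Many of these genes are transcribed under E2F factors as cells leave quiescence. Tissue-resident macrophages of the liver, the Kupffer cells, are known to renew themselves by local division, and monocyte-derived macrophages can also divide after entering the tissue.

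The values are FPKM, fragment counts scaled by the authors to gene length and to the library total, so levels can be set beside each other between genes. Depth is not stated in the files. It was estimated from the step between low values at about 17880000 fragments in the FABP7 KO library and 18020000 in the WT library. At that depth the 55 genes rested on 29 to 3320 estimated fragments in the FABP7 KO library and 139 to 10291 in the WT library. Fabp7 itself (ENSMUSG00000019874) was at 0.69 FPKM in the FABP7 KO library and 354 FPKM in the WT library. Adgre1, which encodes F4/80, was at 925 FPKM in the FABP7 KO library and 864 FPKM in the WT library, and the Kupffer cell marker Clec4f was at 4156 and 3188 FPKM in the FABP7 KO and WT libraries. Both libraries thus carried the markers of the labelled cell type.

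Every one of the 55 replication genes was at a lower level in the FABP7 KO library than in the WT library. Ratios are log2 of (FABP7 KO + 1 FPKM)/(WT + 1 FPKM), a scale on which differences of weakly expressed genes appear smaller than they are, and a gene counted as lower or higher when the ratio reached 1 in size, that is, 2-fold. By that rule, 39 of the 55 (70.9%) were at least 2-fold lower and none was at least 2-fold higher, beside 2.95% lower and 2.21% higher of the 10770 genes that reached 1 FPKM in either library. All 55 passed this floor. Their median log2 ratio was -1.27, with quartiles of -1.52 and -0.95, beside a median of 0.004 over all measured genes, of which 49.5% had a negative ratio. The ratios of single members went from -2.66 for Pclaf to -0.26 for Rnaseh2a. Summed over the 55 genes, the level was 575 FPKM in the FABP7 KO library and 1442 FPKM in the WT library, or 0.128% and 0.312% of all FPKM in the FABP7 KO and WT libraries.

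**Figure D1:**
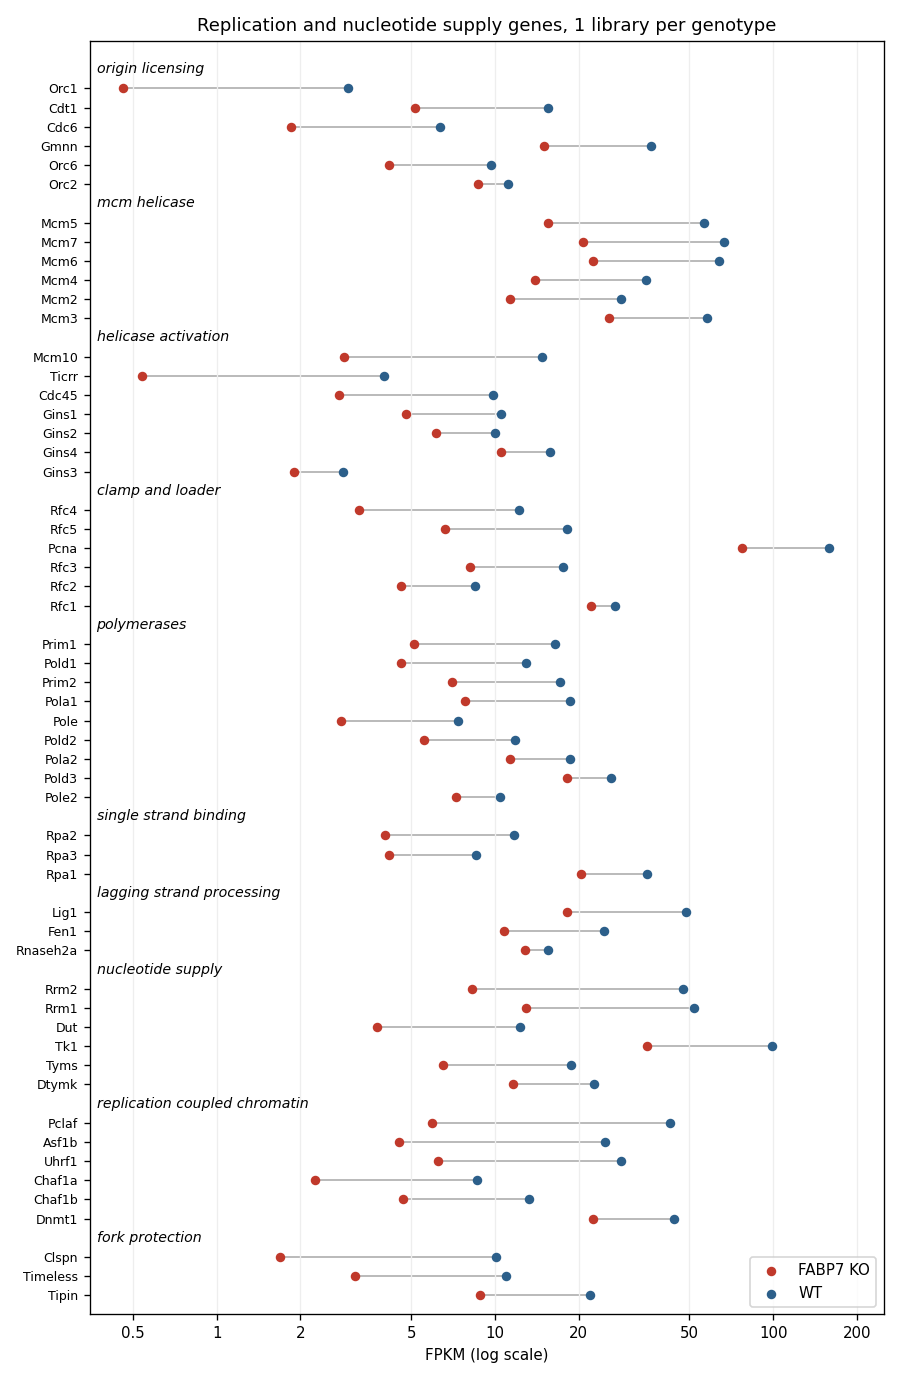
FPKM on a log axis for each of the 55 genes (rows, grouped by role), with a red point for the FABP7 KO library, a blue point for the WT library and a grey line joining them. The red point lies left of the blue one in all 55 rows, and the distance is shortest for Rnaseh2a, Rfc1 and Orc2.

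In a bulk library, fewer dividing cells and less of these RNAs per cell cannot be told apart. Markers of other cells also differed between the libraries, and their part in the replication gene values was not tested. Of 7 measured neutrophil markers, 6 were at least 2-fold higher in FABP7 KO, with a summed level over the 9 listed of 111 FPKM in the FABP7 KO and 39.3 FPKM in the WT library. The endothelial list summed to 281 FPKM in the FABP7 KO and 154 FPKM in the WT library, with 6 of 10 at least 2-fold higher. The B cell list summed to 45.3 FPKM in the FABP7 KO and 17.3 FPKM in the WT library, with 3 of 5 measured at least 2-fold higher, and hepatocyte markers summed to 1224 and 616 FPKM in the FABP7 KO and WT libraries, with 3 of 14 at least 2-fold higher. Stellate cell and fibroblast markers summed to 50.8 FPKM in the FABP7 KO and 18.3 FPKM in the WT library, erythroid markers to 49.0 and 19.3 FPKM, and dendritic cell markers to 30.3 and 17.6 FPKM in the FABP7 KO and WT libraries. Most of the dendritic sum was Clec9a, at 25.8 FPKM in the FABP7 KO and 15.4 FPKM in the WT library. Of the 3 measured dendritic markers, 2 were above 0, none past 2-fold, and 1, Xcr1, was below it at 0.5 FPKM in the FABP7 KO and 1.2 FPKM in the WT library. The 10 Kupffer cell markers summed to 15916 FPKM in the FABP7 KO and 15261 FPKM in the WT library, with 7 above 0, 3 below it and none past the 2-fold rule. The lowest of them was Marco, a scavenger receptor, at 714 FPKM in the FABP7 KO and 1377 FPKM in the WT library, a log2 ratio of -0.95.

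Among markers of recruited monocytes, 1 of 7 measured was at least 2-fold lower, 4 were below 0 and 3 above it on the log2 scale. The 8 listed monocyte-derived genes summed to 474 FPKM in the FABP7 KO and 961 FPKM in the WT library, most of it Plac8, at 427 FPKM in the FABP7 KO and 908 FPKM in the WT library. Ly6c2, the classical monocyte marker, was at 4.63 FPKM in the FABP7 KO and 9.92 FPKM in the WT library. Other genes of the list stood above 0, with log2 ratios of 0.56 for Chil3, 0.53 for Itgam and 0.22 for Cx3cr1, while the chemokine receptor Ccr2 was at -0.07 (Cx3cr1 and Ccr2 were named after their values were seen). Pan-macrophage markers were not lower as a group, with 9 of 11 above 0 on the log2 scale and a median of 0.25. Among 12 T and NK cell markers the summed level was 45.8 FPKM in the FABP7 KO and 28.1 FPKM in the WT library. Icos, a costimulatory receptor, supplied most of the FABP7 KO sum at 33.1 FPKM, against 13.9 FPKM in the WT library, and the 11 others summed to 12.7 FPKM in the FABP7 KO and 14.2 FPKM in the WT library. Among them was Gzmb, a cytotoxic granule protease that activated lymphocytes express, at 0.89 FPKM in the FABP7 KO and 3.38 FPKM in the WT library. Dividing MC38 cells would also carry replication RNAs. The 12 epithelial markers summed to 7.01 FPKM in the FABP7 KO and 7.18 FPKM in the WT library, and only the keratins Krt8, Krt18 and Krt19 reached 1 FPKM. Of the 12, 2 were listed at 0 in the FABP7 KO library and 6 in the WT library. Cldn4 and Cdx2 were listed at 0 in both, and Epcam was at 0.13 FPKM in the FABP7 KO library and listed at 0 in the WT library (these 3 were named after their values were seen). How strongly MC38 cells themselves express these markers was not measured here.

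Origin licensing genes were lower with 1 member standing apart. Orc1, the origin recognition subunit that comes and goes with the cell cycle in mammalian cells, was at 0.46 FPKM in the FABP7 KO and 2.97 FPKM in the WT library, or 15.5% of the WT level (95% counting interval 10.2 to 23.3%). Orc6 was at 4.18 FPKM in the FABP7 KO and 9.70 FPKM in the WT library, while Orc2, which shares 29.8% of its exon bases with Nif3l1 on the opposite strand, was at 8.73 FPKM in the FABP7 KO and 11.2 FPKM in the WT library, with a log2 ratio of -0.32. Within the origin recognition complex, the difference was thus unequal between subunits. The remaining subunits, which are not among the 55, stood nearer to Orc2 than to Orc1, with log2 ratios of -0.32 for Orc3, -0.17 for Orc4 and -0.01 for Orc5, genes named after their values were seen.

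The loaders that bring the MCM ring to origins were also lower. Cdc6 was at 1.85 FPKM in the FABP7 KO and 6.36 FPKM in the WT library. Cdt1, the other loader, was at 5.16 FPKM in the FABP7 KO and 15.5 FPKM in the WT library. Gmnn encodes geminin, which binds CDT1 and blocks a second round of licensing, and was at 15.0 FPKM in the FABP7 KO and 36.5 FPKM in the WT library. The loader and its inhibitor were therefore lower in like measure, with Cdt1 at 0.344 of the Gmnn level in the FABP7 KO and 0.424 in the WT library.

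The 6 subunits of the MCM2 to MCM7 ring were all at least 2-fold lower, with a median log2 ratio of -1.37. Mcm5 had the lowest ratio of the ring, at 15.6 FPKM in the FABP7 KO and 56.6 FPKM in the WT library. Mcm7 was at 20.7 FPKM in the FABP7 KO and 66.8 FPKM in the WT library, and Mcm6 at 22.6 and 64.1 FPKM in the FABP7 KO and WT libraries. Mcm4, Mcm2 and Mcm3 had log2 ratios of -1.27, -1.25 and -1.15. The ring is built from 1 copy of each subunit, and the RNA levels of the subunits spread over a like range in both libraries, with the highest 2.27 times the lowest in FABP7 KO and 2.36 times in WT.

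Genes that switch the loaded ring on split into a group with large and a group with small ratios. Mcm10, which is needed to start unwinding, was at 2.88 FPKM in the FABP7 KO and 14.7 FPKM in the WT library. Ticrr, the treslin protein that recruits CDC45 to origins, was at 0.54 FPKM in the FABP7 KO and 3.98 FPKM in the WT library, the lowest share of the WT level of all 55 genes at 13.6% (counting interval 10.9 to 16.9%). Cdc45 was at 2.75 FPKM in the FABP7 KO and 9.82 FPKM in the WT library. These 3 had log2 ratios of -1.53 or below.

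None of the 4 GINS subunits, which join CDC45 and the ring in the active helicase, reached 2-fold on the FPKM + 1 scale. Gins1 was just short there at a log2 ratio of -0.99, with 4.81 FPKM in the FABP7 KO and 10.51 FPKM in the WT library, and past 2-fold without the pseudocount at -1.13. Gins2, Gins4 and Gins3 had ratios of -0.62, -0.54 and -0.41. Gins3 was the lowest of them in level, at 1.90 FPKM in the FABP7 KO and 2.85 FPKM in the WT library, and its counting interval of 50.7 to 87.4% of the WT level lies under 100% but is wide. By GENCODE, 67.3% of the Gins2 exon bases overlap Gse1 on the opposite strand, which was at 6.64 FPKM in the FABP7 KO and 4.87 FPKM in the WT library. The sources at hand do not state whether the authors' counting used the strand, so reads of these 2 genes cannot be told apart.

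Pcna, the sliding clamp that holds polymerases on DNA, was the most abundant of the 55 genes in both libraries, at 77.4 FPKM in the FABP7 KO and 159 FPKM in the WT library. Its log2 ratio of -1.03 was close to the 2-fold rule and short of it under both other scalings of the FABP7 KO library (-0.99 and -0.98), as was that of Rfc3. Among the subunits of replication factor C, which opens the clamp and places it on DNA, Rfc4 had the lowest ratio, at 3.26 FPKM in the FABP7 KO and 12.2 FPKM in the WT library. Rfc4 shares 12.7% of its exon bases with Eif4a2 on the opposite strand, which was at 152 FPKM in the FABP7 KO and 136 FPKM in the WT library. Rfc5 was at 6.62 FPKM in the FABP7 KO and 18.2 FPKM in the WT library, and Rfc3 and Rfc2 had ratios of -1.02 and -0.76. Rfc1, the large subunit, was at 22.2 FPKM in the FABP7 KO and 27.0 FPKM in the WT library, a ratio of -0.27. As with the origin recognition complex, subunits of 1 complex thus differed widely in their ratios.

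The polymerase genes were lower at 5 of 9 by the 2-fold rule, with a median log2 ratio of -1.14. Prim1, the catalytic subunit of primase, was at 5.13 FPKM in the FABP7 KO and 16.4 FPKM in the WT library, and Prim2, its large subunit, at 7.04 and 17.1 FPKM in the FABP7 KO and WT libraries. With primase set aside, the catalytic subunit of each polymerase had a lower ratio than the accessory subunits among the 55. For polymerase alpha, which extends the primers, the log2 ratio was -1.16 for Pola1 and -0.68 for Pola2. For polymerase delta, which copies the lagging strand, it was -1.31 for Pold1, -0.96 for Pold2 and -0.49 for Pold3. For polymerase epsilon, which copies the leading strand, it was -1.14 for Pole and -0.47 for Pole2. This order was read from the values after they were seen and rests on 3 enzymes. It does not hold for polymerase alpha if the primase subunits are counted with it, since Prim2 was at -1.17.

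Single-strand binding genes had a median log2 ratio of -0.89 and lagging strand genes one of -1.13. Of the RPA complex, which coats unwound DNA, Rpa2 was at 4.02 FPKM in the FABP7 KO and 11.8 FPKM in the WT library, and Rpa3 and Rpa1 had log2 ratios of -0.89 and -0.76. Lig1, the ligase that seals Okazaki fragments, was at 18.2 FPKM in the FABP7 KO and 48.5 FPKM in the WT library. Fen1, the nuclease that trims their flaps, was at 10.8 FPKM in the FABP7 KO and 24.8 FPKM in the WT library. Rnaseh2a, the catalytic subunit of RNase H2, had the ratio nearest 0 of all 55 genes, at 12.8 FPKM in the FABP7 KO and 15.5 FPKM in the WT library.

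Enzymes that supply deoxynucleotides had some of the lowest ratios, with 5 of 6 at least 2-fold lower and a median of -1.48. Rrm2, the ribonucleotide reductase subunit that is made in S phase, was at 8.26 FPKM in the FABP7 KO and 47.6 FPKM in the WT library, or 17.4% of the WT level. Rrm1, the large subunit, was at 12.9 FPKM in the FABP7 KO and 51.9 FPKM in the WT library. The level of Rrm1 over that of Rrm2 was therefore 1.56 in FABP7 KO and 1.09 in WT.

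Tk1, the cytosolic thymidine kinase, was the second most abundant of the 55 genes in both libraries, at 35.4 FPKM in the FABP7 KO and 99.4 FPKM in the WT library. Tyms, which makes thymidylate, was at 6.53 FPKM in the FABP7 KO and 18.8 FPKM in the WT library. Dut, which clears dUTP, was at 3.76 FPKM in the FABP7 KO and 12.4 FPKM in the WT library. Dtymk, the thymidylate kinase, was just short of 2-fold at -0.91, with 11.6 FPKM in the FABP7 KO and 22.8 FPKM in the WT library.

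The genes that follow the fork to rebuild chromatin had the lowest median log2 ratio of the 10 role groups, -1.79. They included Pclaf, which had the lowest ratio of all members on the FPKM + 1 scale. Without the pseudocount, Ticrr was slightly lower, at -2.88 beside -2.85 for Pclaf. Pclaf (PCNA clamp associated factor) was at 5.92 FPKM in the FABP7 KO and 42.8 FPKM in the WT library, or 13.8% of the WT level (counting interval 12.6 to 15.2%). Set against the clamp it binds, Pclaf stood at 0.077 of the Pcna level in FABP7 KO and 0.269 in WT. Asf1b, a histone chaperone of dividing cells, was at 4.51 FPKM in the FABP7 KO and 24.9 FPKM in the WT library.

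Uhrf1, which reads hemimethylated DNA behind the fork, was at 6.22 FPKM in the FABP7 KO and 28.4 FPKM in the WT library. Dnmt1, the methyltransferase that UHRF1 recruits, differed less, at 22.5 FPKM in the FABP7 KO and 43.9 FPKM in the WT library, a log2 ratio of -0.93. The CAF-1 subunits Chaf1a and Chaf1b, which deposit new histones, had ratios of -1.56 and -1.33. Chaf1a shares 52.5% of its exon bases with Ubxn6 on the opposite strand, at 21.3 FPKM in the FABP7 KO and 16.5 FPKM in the WT library, and its own level was 2.26 FPKM in the FABP7 KO and 8.62 FPKM in the WT library.

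All 3 fork protection genes were at least 2-fold lower. Clspn, the claspin adaptor that carries the checkpoint signal to CHK1, was at 1.69 FPKM in the FABP7 KO and 10.1 FPKM in the WT library. Its fork partners Timeless and Tipin had log2 ratios of -1.53 and -1.22, with Timeless at 3.14 FPKM in the FABP7 KO and 11.0 FPKM in the WT library. With Pclaf, Rrm2, Asf1b, Uhrf1 and Mcm10, Clspn made up the 6 genes at least 4-fold lower on the FPKM + 1 scale.

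Counting error at the estimated depth was small beside most of these differences. Taken without the pseudocount, the 95% counting interval of the ratio lay below 0 on the log2 scale for all 55 genes, wholly below -1 for 36, across -1 for 9 and wholly above -1 for 10. The intervals are exact binomial ones from estimated fragments and cover counting error only, not differences between mice. Levels of the 55 genes kept much of their order between the libraries (Spearman rho 0.86 across genes, which share 2 libraries and are not independent), and the log2 ratio had little relation to the WT level (rho -0.17 across genes).

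**Figure D2:**
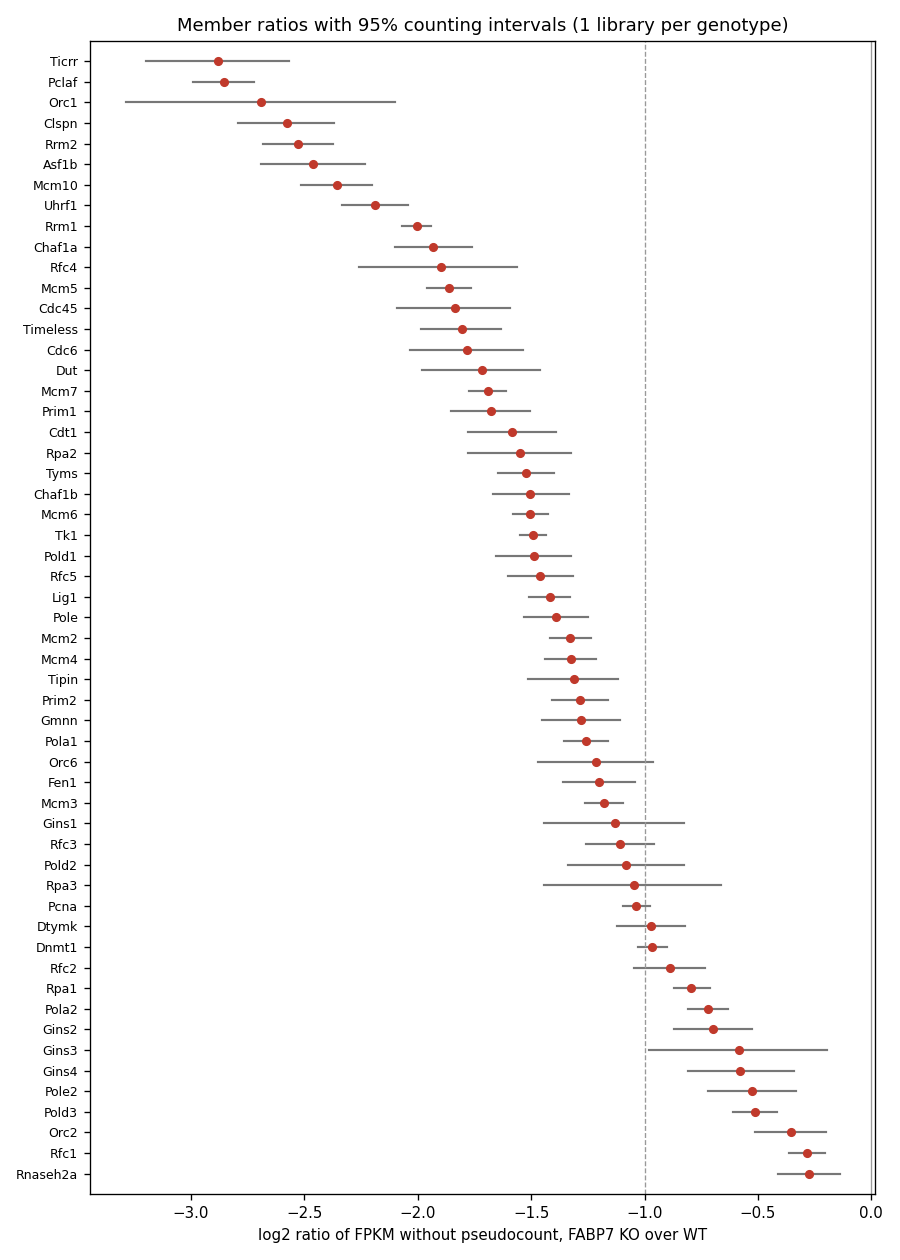
For each of the 55 genes (rows, sorted), the x axis gives the log2 ratio of FABP7 KO to WT FPKM without a pseudocount, with a red point for the ratio and a grey bar for its 95% counting interval. All 55 bars end left of 0, 36 of them left of the dashed line at -1, and the widest is that of Orc1, with 29 estimated fragments in the FABP7 KO library.

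Related genes outside the 55 were lower by less, and mitosis genes by more. Of 31 other replication genes, such as further ORC subunits, polymerase subunits and clamp loaders, 10 were at least 2-fold lower and 30 had a negative ratio, with a median of -0.53. The lowest were Wdhd1, which links the helicase to polymerase alpha, at 3.54 FPKM in the FABP7 KO and 11.6 FPKM in the WT library, and Cdc7, the kinase that fires origins, at 1.08 FPKM in the FABP7 KO and 4.55 FPKM in the WT library. Top1, which relaxes DNA ahead of forks and transcription, was the 1 gene of that list above 0, at 59.7 FPKM in the FABP7 KO and 55.3 FPKM in the WT library. The 25 mitosis genes all passed the 2-fold rule, their median log2 ratio being -2.42, and Ube2c, a ubiquitin-conjugating enzyme of mitotic exit, was at 4.03 FPKM in the FABP7 KO and 46.5 FPKM in the WT library. Of the 55 replication genes only Pclaf had a ratio under that mitosis median on the FPKM + 1 scale. Without the pseudocount, Ticrr (-2.88) was below Pclaf (-2.85), and no mitosis median was taken on that scale. Replication of the mitochondrial genome uses other enzymes, and of their 11 genes none passed the 2-fold rule, with a median of -0.09 and Polg, the mitochondrial polymerase, at 18.3 FPKM in the FABP7 KO and 19.2 FPKM in the WT library. No test sets these lists apart from each other.

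**Figure D3:**
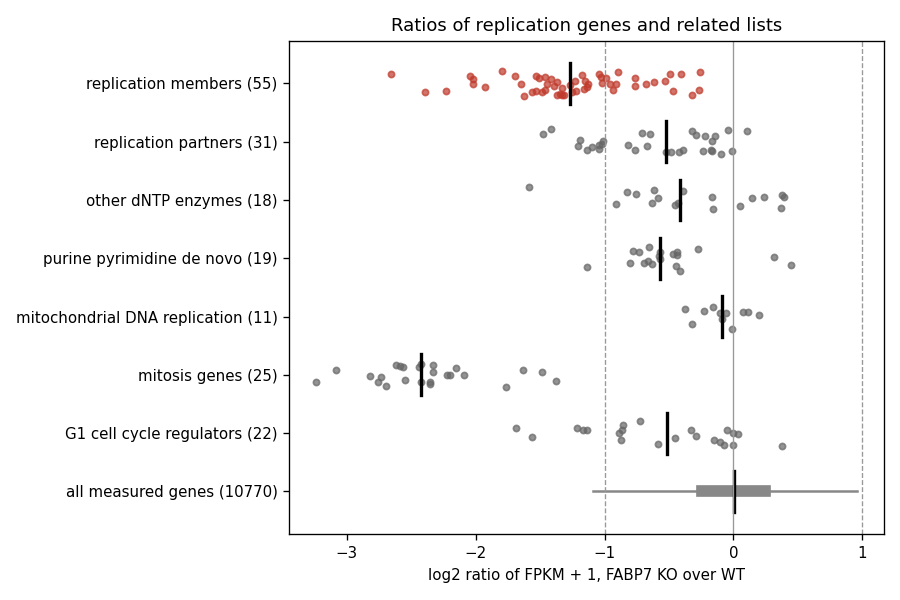
The x axis gives the log2 ratio of FABP7 KO to WT (FPKM + 1) for each measured gene (points) of the 55 replication genes (red) and 6 related lists (grey), with a black line at each median, and for all 10770 measured genes the median, the quartiles (thick bar) and the central range from -1.09 to 0.96 (thin bar, 95% of the genes). The medians lie at -1.27 for the replication genes, -2.42 for the mitosis genes and -0.09 for mitochondrial DNA replication, and the dashed lines mark 2-fold.

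For several members the genome holds a related gene of similar function, and these related genes stood at other ratios. They are all from the lists above but were picked as pairs after their values were seen. Rrm2b, the p53-inducible form of the small ribonucleotide reductase subunit, was at 5.96 FPKM in the FABP7 KO and 4.38 FPKM in the WT library. Rrm2 was therefore 1.39 times the level of Rrm2b in FABP7 KO and 10.9 times in WT. Tk2, the mitochondrial thymidine kinase, was at 28.5 FPKM in the FABP7 KO and 21.4 FPKM in the WT library. Tk1 stood above Tk2 in both libraries, at 35.4 FPKM in the FABP7 KO and 99.4 FPKM in the WT library. Asf1a, the second histone chaperone of this pair, was at 4.14 FPKM in the FABP7 KO and 7.03 FPKM in the WT library, a log2 ratio of -0.64 beside -2.23 for Asf1b. Lig3, which serves repair and mitochondrial DNA, was at 5.17 FPKM in the FABP7 KO and 6.71 FPKM in the WT library, a ratio of -0.32 beside -1.37 for Lig1.

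**Figure D4:**
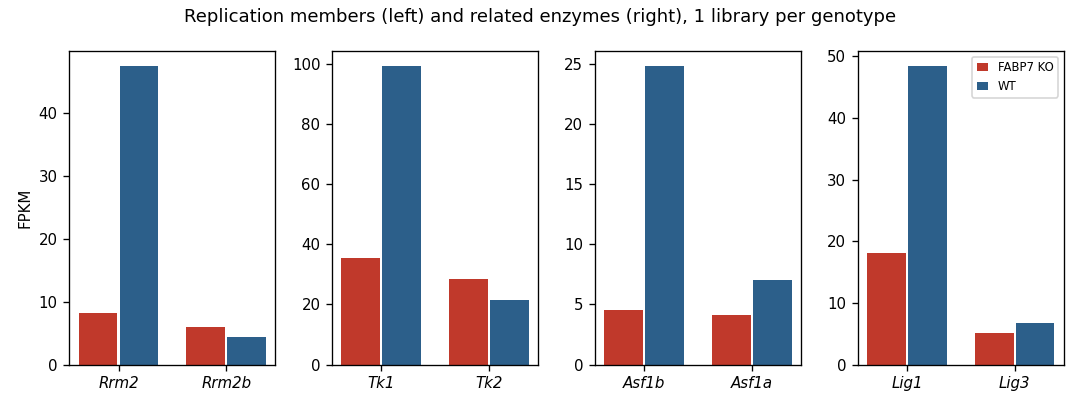
FPKM on the y axis, from 0, for 4 replication genes (left pair of bars in each panel) and a related gene (right pair), in red for the FABP7 KO library and blue for the WT library. Rrm2 is at 8.26 FPKM in FABP7 KO and 47.6 FPKM in WT, while Rrm2b is at 5.96 and 4.38 FPKM in FABP7 KO and WT.

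The wider nucleotide pathway showed smaller differences than the 6 nucleotide supply members. Among 18 measured further enzymes of deoxynucleotide handling, 12 had a negative ratio and 6 a positive one, with a median of -0.41. Samhd1, which breaks deoxynucleotides down in non-dividing cells, was the most abundant of the list, at 348 FPKM in the FABP7 KO and 391 FPKM in the WT library. It stood above every one of the 55 replication genes in both libraries.

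Since the 55 genes were lower together, their promoters were searched for words that cell cycle factors are known to bind, on both strands of RefSeq promoters (GRCm38.p6, from 250 bases before to 50 bases after the start). A promoter was held for 46 of the 55 genes, and the 9 others are Mcm4, Gmnn, Gins1, Gins2, Gins4, Rfc2, Prim2, Pole and Tipin. The E2F words TTTCCCGC, TTTCGCGC, TTTGCCGC and TTTGGCGC were present in 18 of 46 (39.1%), beside 2.6% of all 27025 genes with a promoter and 4.95% of the 8570 measured ones. Of the 246 measured genes that were at least 2-fold lower, which include members, 16.3% had an E2F word. CCAAT, the word of the factor NF-Y, was present in 31 of 46 (67.4%), beside 41.1% of all genes and 43.2% of the measured ones. Among the 246 lower genes the share with CCAAT was 65.4%, close to that of the members. The CHR words TTTGAA and TTTAAA, known from promoters of late cell cycle genes, were present in 14 of 46 (30.4%), beside 30.6% of all genes, 22.7% of the measured ones and 47.6% of the 246 measured genes that were at least 2-fold lower. In 10 of the 18 genes an E2F word lay wholly before the start, and in 8 it reached or followed it.

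The stretches below show the E2F words of 6 genes of licensing, the helicase, polymerase alpha and chromatin, and the CCAAT words of Rrm1, which had no E2F word. Each is written 5′ to 3′ on the strand of its gene with 20 bases on either side, ending at the last base before the start where that comes first, and capitals mark E2F words and CCAAT words on either strand. An E2F word on the opposite strand reads as its reverse complement, for example GCGCGAAA, and overlapping words run together.
Orc1, chr4:108579407-108579453, plus strand: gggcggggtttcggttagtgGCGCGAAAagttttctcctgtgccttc
Cdc6, chr11:98907993-98908040, plus strand: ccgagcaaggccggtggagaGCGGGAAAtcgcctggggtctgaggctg
Mcm5, chr8:75109336-75109387, plus strand: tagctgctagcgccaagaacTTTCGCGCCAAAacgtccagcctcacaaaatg
Mcm6, chr1:128359725-128359835, minus strand: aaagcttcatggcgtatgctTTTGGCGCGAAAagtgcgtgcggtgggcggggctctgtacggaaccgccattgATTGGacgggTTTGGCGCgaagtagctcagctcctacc
Pola1, chrX:93632266-93632313, minus strand: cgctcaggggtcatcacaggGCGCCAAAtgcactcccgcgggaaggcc
Uhrf1, chr17:56304108-56304155, plus strand: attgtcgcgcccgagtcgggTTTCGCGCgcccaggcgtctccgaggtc
Rrm1, chr7:102441584-102441674, plus strand: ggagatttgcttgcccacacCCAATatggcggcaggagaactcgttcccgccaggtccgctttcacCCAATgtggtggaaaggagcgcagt

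Mcm5 and Mcm6 each carried overlapping E2F words on both strands, and Mcm6 a further one nearer the start with a CCAAT word beside it. Ratios of genes with and without each kind of word overlapped. The 18 with an E2F word had a median log2 ratio of -1.37 with 14 at least 2-fold lower, and the 28 without one had a median of -1.34 with 20 at least 2-fold lower. Genes with CCAAT had a median of -1.35 (31 genes) and those without it -1.37 (15 genes), and genes with CHR words had a median of -1.497 (14 genes) and those without -1.34 (32 genes). A match says only that these letters are present, and binding of E2F or NF-Y factors was not measured.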

How the data were processed

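The members and the gene lists were chosen with earlier results of these data known. Per the file headers the deposited values are FPKM with 2 decimals, made by the authors, in 1 table of both libraries and 1 table per library with the same values. Bowtie2 2.2.8 and TopHat2 2.1.1 are listed in the submitters' processing notes. Their genome build, annotation and counting tool were not given in the sources used here. Symbols came from GENCODE M21 for 22267 of 22322 IDs. Of IDs with the same symbol, the row of highest mean was kept.

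Ratios are log2((FABP7 KO + 1)/(WT + 1)) over genes reaching 1 FPKM in either library. With 1 library per genotype no test was made. Depth was taken as the value at which low FPKM values of single-transcript genes of 200 to 1000 bases came closest to whole fragments. At that depth 90.8% of 130 such values in the FABP7 KO library and 88.5% of 130 in the WT library lay within 0.15 of a whole number. A depth set in advance would give 30.0% by chance. Since the depth was fitted to these same values, the share by chance after the fit would be higher and was not measured. Fragments per gene follow from GENCODE exon lengths, which may differ from the authors', and intervals are Clopper-Pearson. Pcna and Tyms have named pseudogenes that could share their reads. By GENCODE, 14 members share exon bases with another measured gene on the opposite strand, 12 of them for under 30% of their length. The other gene can be far more abundant than the member, as Eif4a2 is beside Rfc4. Orc6 shares 6.9% of its exon bases with Vps35, at 60.8 FPKM in the FABP7 KO and 68.5 FPKM in the WT library. How far such reads entered the values was not tested.

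All members could be named. From the related and marker lists, the rule named the 4 genes with the largest ratio in size and the 2 with the highest mean, and other genes are marked as named after their values were seen. The values of 2 listed genes are not reported here. The alternatives tried were 2 other scalings of the FABP7 KO library, a size rule of 1.5, a pseudocount of 0.1 FPKM, a floor raised to 5 FPKM and the floor left out. The ratio, the floor and the size rule were tested on simulated libraries, and the estimate of depth, the intervals and the promoter search were not. A search for PCNA-binding peptides was planned and not run, since no protein sequences were used here. The software was SciPy 1.17.1, pandas 2.3.3, NumPy 2.4.6 and Matplotlib 3.10.9 under Python 3.11.15.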

Additional observations from a re-analysis of the deposited data

How the results depend on the processing

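All 55 replication genes had a negative ratio under every alternative run. The number at least 2-fold lower was 42 with a pseudocount of 0.1, 37 under each other scaling of the FABP7 KO library (division by 0.974, from the median over genes of at least 10 FPKM in each library, or by 0.965, from summed FPKM without hepatocyte, erythroid and mitochondrially encoded genes), 37 of 52 with a floor of 5 FPKM, and 15 at a size rule of 1.5 on the log2 scale. Of all measured genes, the share lower was 4.12% with a pseudocount of 0.1, 2.84% under the median scaling and 2.76% under the summed scaling. It was 2.89% with a floor of 5 FPKM and 1.29% at a size rule of 1.5. No member was 2-fold higher under any alternative. The median of the members was -1.36 with a pseudocount of 0.1 and -1.22 to -1.27 otherwise. The number of all measured genes past the rule moved as well. It was 444 lower and 562 higher with a pseudocount of 0.1, and 232 lower and 143 higher with a floor of 5 FPKM. At a size rule of 1.5 it was 139 lower and 50 higher, beside 318 lower and 238 higher in the main run. Pcna and Rfc3 fell short of 2-fold under both scalings, and Gins1, Pold2 and Rpa3 reached it with a pseudocount of 0.1. In a window from 150 bases before the start to the start, E2F words were in 7 of 46 member genes (1.44% of all genes), CHR words in 6 (16.8%) and CCAAT in 28 (27.7%). No paired analysis was possible because each genotype has 1 library, and no library could be left out. Depth limits most the 5 members with fewer than 100 estimated fragments in the FABP7 KO library, which are Orc1, Ticrr, Gins3, Rfc4 and Rpa3.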

Other observations

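Regulators of the step into S phase differed among themselves in the same libraries. Of 22 listed G1 regulators, 5 were at least 2-fold lower and 20 had a negative ratio, with a median log2 ratio of -0.52. Ccne1, the cyclin E that drives entry into S phase, was at 1.64 FPKM in the FABP7 KO and 7.5 FPKM in the WT library, and E2f8, a repressor among the E2F factors, was at 1.42 FPKM in the FABP7 KO and 6.14 FPKM in the WT library. Rbl1, the p107 pocket protein, was at 7.87 FPKM in the FABP7 KO and 18.9 FPKM in the WT library, and Cdkn2c, a CDK4 and CDK6 inhibitor, was at 4.46 and 11.7 FPKM in the FABP7 KO and WT libraries. Ccnd1, the D cyclin that growth signals induce, was at 52.7 FPKM in the FABP7 KO and 56.8 FPKM in the WT library, and Cdk4 at 39.5 and 54.5 FPKM in the FABP7 KO and WT libraries. Members of 1 family differed too, with log2 ratios of -1.56 for E2f8 and 0.37 for E2f3, and of -1.17 for Rbl1 and -0.01 for Rbl2, of which E2f3 and Rbl2 were named after their values were seen.

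Enzymes of purine and pyrimidine synthesis, which feed RNA as well as DNA, had 17 of 19 ratios below 0, a median of -0.57 and 1 gene at least 2-fold lower. That gene was Mthfd2, a mitochondrial folate enzyme, at 2.27 FPKM in the FABP7 KO and 6.20 FPKM in the WT library. Paics, of purine synthesis, was at 37.1 FPKM in the FABP7 KO and 62.4 FPKM in the WT library. Impdh1 and Impdh2, which encode isozymes of the same step to guanine nucleotides, stood on opposite sides of 0, named here after their values were seen. Impdh1 was at 22.8 FPKM in the FABP7 KO and 16.5 FPKM in the WT library, and Impdh2 at 23.5 FPKM in the FABP7 KO and 41.8 FPKM in the WT library.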
